A study of Mus musculus with 12 samples.

Results

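The 5 genes described here encode a set of adhesion chains that work in pairs, and a ligand. They are Itgae (the αE chain, CD103), Itga4 (the α4 chain), their β partners Itgb7 and Itgb1, and Cdh1 (E-cadherin). They were chosen by name, from the pairs αE-β7, α4-β7 and α4-β1 and from the ligand of αE, and were found by gene symbol in the count tables. All 5 of the 5 genes were found among the 46078 genes listed, and all 5 were among the 14009 genes that passed the filter on low counts. The libraries are of CD8 T cells from the spleen of C57BL/6 mice, with no genetic change named in the labels, cultured to day 7. All 4 culture groups received the interleukins IL-2 and IL-15. To these, transforming growth factor beta with all-trans retinoic acid (TGFb + RA), TGFb without RA (TGFb), RA without TGFb (RA), or neither (IL-2 + IL-15) was added, with 3 libraries each. The series title gives the making of CD8 Trm cells, the memory T cells that stay in tissues, as the aim, and the labels do not say how the cells were isolated or stimulated, or which libraries came from the same animal. P-values therefore measure the spread between these samples, which may in part be technical.

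Integrins are surface receptors made of 1 α and 1 β chain, and a chain reaches the surface only with a partner. The pair αE-β7 binds E-cadherin on epithelial cells and is a mark of T cells that lodge in the gut and skin epithelium. The pair α4-β7 binds MAdCAM-1 on gut vessels and guides T cells to the intestine, while α4-β1 binds VCAM-1 on inflamed vessels and fibronectin. In T cells, signals of TGFb are known to act on Itgae, and retinoic acid made by dendritic cells of the gut is known to act on α4-β7. E-cadherin binds itself and αE-β7 from outside, β-catenin from inside, and is also a ligand of the inhibitory receptor KLRG1.

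Library totals were 18300206 to 33477037 counts, and a chi-square test of replicates against each other gave 4.02 to 26 per degree of freedom, far above what counting error alone gives. RA replicate 3 was farthest from the others of its group (26 and 22.1). Some results that rest on it are also given without it. The change of Cdh1 with RA, the chain ratios and the genes of the lists below are given only with it. All 8 CD8 T cell markers were detected, with a summed level of 7828 to 8107 CPM (counts scaled to the library size) in TGFb + RA, 7162 to 7409 in TGFb, 4367 to 4758 in RA and 4521 to 5084 in IL-2 + IL-15. Of the 8 epithelial markers Cldn3 and Elf3 had 0 counts in every library, and the list summed to 13.7 to 14.0 CPM in TGFb + RA, 4.37 to 5.23 in TGFb, 7.77 to 10.6 in RA and 2.79 to 3.48 in IL-2 + IL-15. The 8 mast cell markers summed to 50.4 to 78.0 CPM in TGFb + RA, 63.7 to 83.9 in TGFb, 39.8 to 60.5 in RA and 13.3 to 16.3 in IL-2 + IL-15. Most of that sum was Kit and Cpa3, and Ms4a2 had 32 to 56 counts in TGFb + RA, 3 to 18 in TGFb and 0 in the 6 other libraries. In TGFb + RA replicate 3 the neutrophil genes Lyz2, S100a9 and S100a8 had 323, 177 and 97 counts. The 4 NK cell markers summed to 1.42 to 1.77 CPM in TGFb + RA, 0.886 to 2.26 in TGFb, 18.7 to 53.5 in RA and 8.54 to 18.9 in IL-2 + IL-15, and the 4 B cell markers to at most 0.717 CPM in any library. The part of these lists in the results with RA was not tested.

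The promoters of the 3 chains found in the RefSeq table (GRCm38.p6) are shown because these chains went in different directions with the same agents, below. Each sequence is the 250 bases before the RefSeq start, 5′ to 3′ on the gene's strand, and capitals mark matches, on either strand, of CAGAC (the SMAD box), TGTGGT (RUNX) and TCACACC (T-box).
Itga4, chr2:79255176-79255425, plus strand: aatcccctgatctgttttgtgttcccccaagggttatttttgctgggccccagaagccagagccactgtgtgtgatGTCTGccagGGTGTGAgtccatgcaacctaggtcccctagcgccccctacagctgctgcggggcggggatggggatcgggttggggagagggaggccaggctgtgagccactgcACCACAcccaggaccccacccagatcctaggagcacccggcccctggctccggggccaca
Itgb7, chr15:102231936-102232185, minus strand: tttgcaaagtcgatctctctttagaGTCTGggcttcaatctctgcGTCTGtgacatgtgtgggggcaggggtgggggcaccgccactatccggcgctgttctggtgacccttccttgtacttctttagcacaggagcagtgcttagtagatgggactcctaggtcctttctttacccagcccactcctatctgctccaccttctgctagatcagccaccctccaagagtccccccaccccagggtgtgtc
Itgb1, chr8:128685404-128685653, plus strand: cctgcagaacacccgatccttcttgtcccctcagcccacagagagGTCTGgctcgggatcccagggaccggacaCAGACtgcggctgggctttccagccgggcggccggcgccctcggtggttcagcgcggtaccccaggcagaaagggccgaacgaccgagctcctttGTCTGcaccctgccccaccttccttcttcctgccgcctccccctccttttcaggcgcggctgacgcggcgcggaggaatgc
CAGAC matched 1 time for Itga4 (position -174 from the start), 2 times for Itgb7 (-225 and -205) and 3 times for Itgb1 (-205, -176 and -81). It is a common word, held by 42.2% of the 32851 promoters of the table. TGTGGT (14% of promoters) and TCACACC (3.33%) matched 1 time each for Itga4, at -60 and -165, and the matches do not overlap. AGGTCA, the half-site of retinoic acid receptors (14% of promoters), and CAGGTG, an E-box of Snail and Zeb factors (17.2%), had 0 matches in these 3 windows. The promoters of Itgae and Cdh1 are not shown.

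Across the 4 cultures the 5 genes followed different orders. Itgae and Cdh1 were high in both cultures with TGFb, Itga4 was highest with RA alone, Itgb7 was high everywhere and moved little, and Itgb1 was lowest with both agents. In TGFb + RA against IL-2 + IL-15, 4 of the 5 genes rose and 1 fell, where 30.8% of all genes tested rose and 32.4% fell, so a call alone is common there. In TGFb against IL-2 + IL-15, 3 of the 5 rose and 2 fell, where 20.7% of all genes rose and 22.4% fell. In RA against IL-2 + IL-15, 4 rose and 1 fell, where 12.4% of all genes rose and 14.3% fell. Against TGFb, TGFb + RA had 2 of the genes higher, 2 lower and 1 not called, where 20.3% of all genes were higher and 22.7% lower. Against RA the 5 genes also split into 2, 2 and 1, where 29.4% of all genes were higher and 30.8% lower. The 3 libraries of each group did not overlap for 5 of 5 genes in the 3 comparisons with IL-2 + IL-15 and for 4 of 5 in each of the other 2. The share of all genes without overlap was 69.9% for TGFb + RA, 56.1% for TGFb and 36% for RA, each against IL-2 + IL-15, and 57.9% and 64.5% for TGFb + RA against TGFb and against RA. These comparisons share libraries, so they are not independent of each other. Genes were called by the quasi-likelihood test of edgeR, at a p under 0.05 after Benjamini-Hochberg adjustment over all genes tested, and every fold change, SE and adjusted p of single genes below comes from it unless another tool is named. The median log2 fold change of all genes was within 0.0114 of 0 in each comparison.

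**Figure D1:**
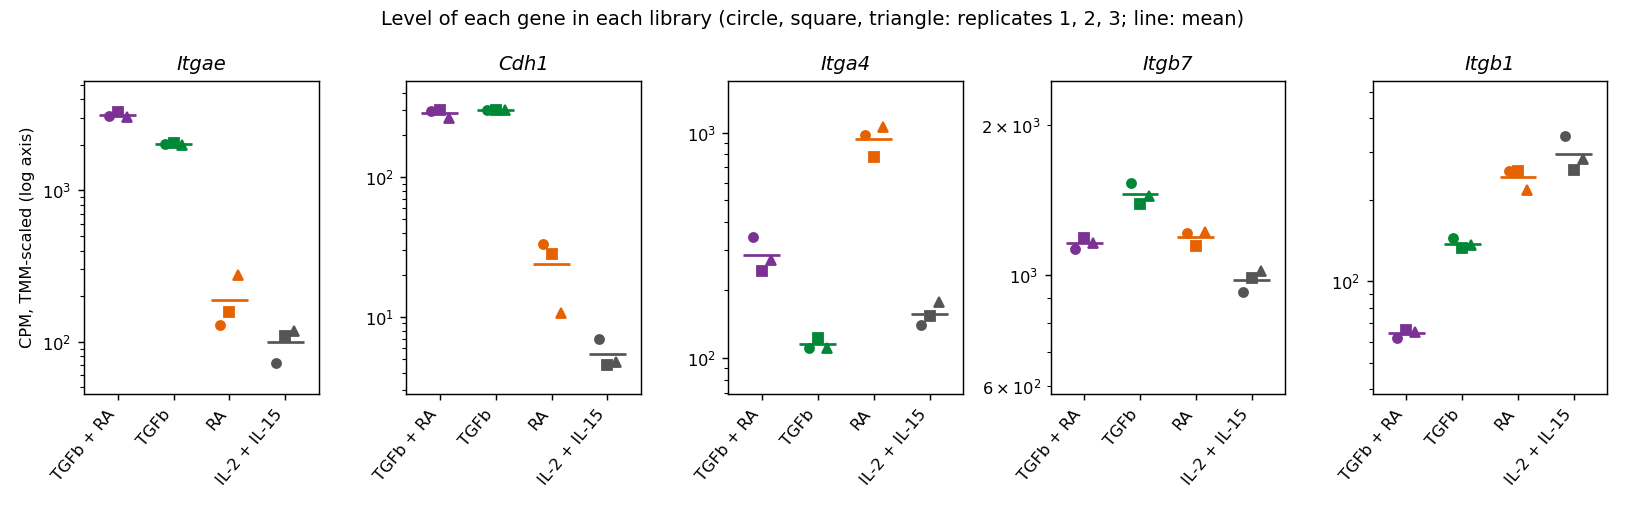
Level of each gene in CPM, scaled by TMM, on a log axis, with 1 point for each of the 12 libraries (circle, square and triangle for replicates 1, 2 and 3) and a line at the group mean. Itgae and Cdh1 stand far higher in TGFb + RA and TGFb than in RA and IL-2 + IL-15, Itga4 peaks in RA, and RA replicate 3 is the highest RA library for Itgae and the lowest for Cdh1.

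Itgae, the αE chain, lies on chromosome 11 (73090583 to 73147446, plus strand, GRCm38; ENSMUSG00000005947), with 31 merged exons of 4581 bases in all. A gene on the other strand, Haspin, lies inside it and shares 0 exon bases with it. Itgae had 3106, 3297 and 3072 CPM in the TGFb + RA libraries (replicates 1, 2 and 3), 2021, 2062 and 2001 in TGFb, 129, 157 and 277 in RA, and 72.3, 109 and 117 in IL-2 + IL-15. The 4 groups did not overlap, all 6 libraries with TGFb stood far above the other 6, and RA replicate 3 lay well above the other RA libraries. In bulk RNA a larger share of cells with the transcript and more of it per cell cannot be told apart, here and for every gene below. The log2 fold change was 4.99 ± 0.26 (SE, 3 libraries per group here and below) for TGFb + RA against IL-2 + IL-15 (adjusted p = 2.07e-09), and 4.35 ± 0.25 for TGFb (2.30e-08). Regulatory T cells also carry αE, and their factor Foxp3 had 4450, 7640 and 4536 counts in TGFb + RA, 1378, 1391 and 1325 in TGFb, 8, 15 and 10 in RA, and 35, 20 and 20 in IL-2 + IL-15. Cd4 had at most 20 counts in the 6 libraries with TGFb and at most 70 in the others. The 4 markers of CD4 and regulatory T cells summed to 200.2 to 276 CPM in TGFb + RA, 87.1 to 89.7 in TGFb, 71.2 to 87.4 in RA and 66.2 to 74.9 in IL-2 + IL-15. Of these 4, only Foxp3 was higher in the cultures with TGFb. Zbtb7b had 26.0 to 31.9 CPM in TGFb + RA, 29.3 to 35.2 in TGFb, 67.7 to 83.2 in RA and 63.3 to 71.9 in IL-2 + IL-15. Cd40lg had at most 36 counts in any library.

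The change of Itgae with RA was smaller. It was 0.92 ± 0.23 for RA against IL-2 + IL-15 (adjusted p = 0.00831), and 0.54 without RA replicate 3 (0.0110). That call was lost in a fit of only these 2 groups (adjusted p = 0.0526) and against a minimum change of 1.5-fold (0.322). On top of TGFb, TGFb + RA exceeded TGFb by 0.64 ± 0.22 (adjusted p = 0.0302). The call of TGFb + RA against TGFb was lost with DESeq2 (adjusted p = 0.0593) and against a minimum change of 1.5-fold. It was also lost without any 1 of the 6 libraries of the 2 groups (0.0577 to 0.0775). In all, 10 of 18 alternative fits kept it, with an adjusted p by edgeR down to 4.24e-07, and 8 lost it. The log2 fold change was 0.61 to 0.66 over the 18, and the 3 libraries of each group did not overlap. The interaction, which is the RA effect with TGFb minus the RA effect without it on the log2 scale, was -0.28 ± 0.31 (95% interval -0.95 to 0.40, adjusted p = 0.584). It was 0.10 without RA replicate 3, so its sign rested on that library.

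Cdh1, the ligand of αE-β7, was itself measured in these T cell cultures. It lies on chromosome 8 (106603351 to 106670246, plus strand; ENSMUSG00000000303), with 16 merged exons of 4574 bases. Its level was 295, 304 and 263 CPM in TGFb + RA, 304, 301 and 302 in TGFb, 33.1, 28.4 and 10.8 in RA, and 6.99, 4.52 and 4.79 in IL-2 + IL-15. Both groups with TGFb overlapped each other and lay above all other libraries, and RA replicate 3 was the lowest RA library but still above every IL-2 + IL-15 library. The IL-2 + IL-15 values rest on 186, 111 and 156 counts. The log2 fold change was 5.73 ± 0.30 for TGFb + RA (adjusted p = 2.60e-09), 5.80 ± 0.31 for TGFb (9.89e-09) and 2.16 ± 0.31 for RA (1.86e-04), each against IL-2 + IL-15.

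In the presence of TGFb no further change of Cdh1 with RA was measured. TGFb + RA differed from TGFb by -0.07 ± 0.23 (95% interval -0.56 to 0.41, adjusted p = 0.822), and from RA by 3.57 ± 0.26 (8.66e-08). The interaction was -2.23 ± 0.39 (adjusted p = 0.00121), and -2.59 without RA replicate 3 (6.51e-08), so the RA effect on Cdh1 was smaller with TGFb than without it. Epithelial cells express E-cadherin, and beside its level stand their other markers. Cldn3 and Elf3 were at 0 throughout. The summed epithelial list was 13.7 to 14.0 CPM in TGFb + RA, 4.37 to 5.23 in TGFb, 7.77 to 10.6 in RA and 2.79 to 3.48 in IL-2 + IL-15. Of that list Epcam had 197, 322 and 276 counts in TGFb + RA, 35, 50 and 49 in TGFb, 134, 222 and 114 in RA, and 26, 27 and 29 in IL-2 + IL-15. Krt18 was detected in every library, at 32 to 94 counts. Cldn4 and Cldn7 had at most 15 counts each, and Krt8 and Krt19 at most 1 and 2. The part of epithelial cells in the Cdh1 results was not tested. The mast cell list was also higher with TGFb and with RA than in IL-2 + IL-15, and its part in the Itgae and Cdh1 results was not tested.

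Itga4, the α chain shared by the gut and the inflamed vessel receptors, lies on chromosome 2 (79255426 to 79333123, plus strand; ENSMUSG00000027009), with 27 merged exons of 13978 bases. It had 346, 243 and 273 CPM in TGFb + RA, 111, 122 and 111 in TGFb, 979, 783 and 1058 in RA, and 140, 154 and 176 in IL-2 + IL-15. The order was RA, TGFb + RA, IL-2 + IL-15 and TGFb from high to low, with no overlap between any 2 groups. The log2 fold change was 0.87 ± 0.13 for TGFb + RA (adjusted p = 6.01e-05), -0.45 ± 0.13 for TGFb (0.0142) and 2.58 ± 0.14 for RA (2.27e-08), each against IL-2 + IL-15. Leaving out IL-2 + IL-15 replicate 3 ended the call with TGFb (-0.36, adjusted p = 0.0659).

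RA raised Itga4 in both settings, but by less where TGFb was present. TGFb + RA exceeded TGFb by 1.32 ± 0.13 (adjusted p = 2.85e-06) and lay below RA by -1.71 ± 0.13 (1.45e-07). The interaction was -1.26 ± 0.19 (adjusted p = 3.62e-04). Of the exon bases of Itga4, 8.04% (1124 bases) overlap Cerkl on the opposite strand, and whether reads were counted by strand is not given in the sources used here. Cerkl had 95 to 204 counts in the 12 libraries, where Itga4 had 2781 to 22233.

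**Figure D2:**
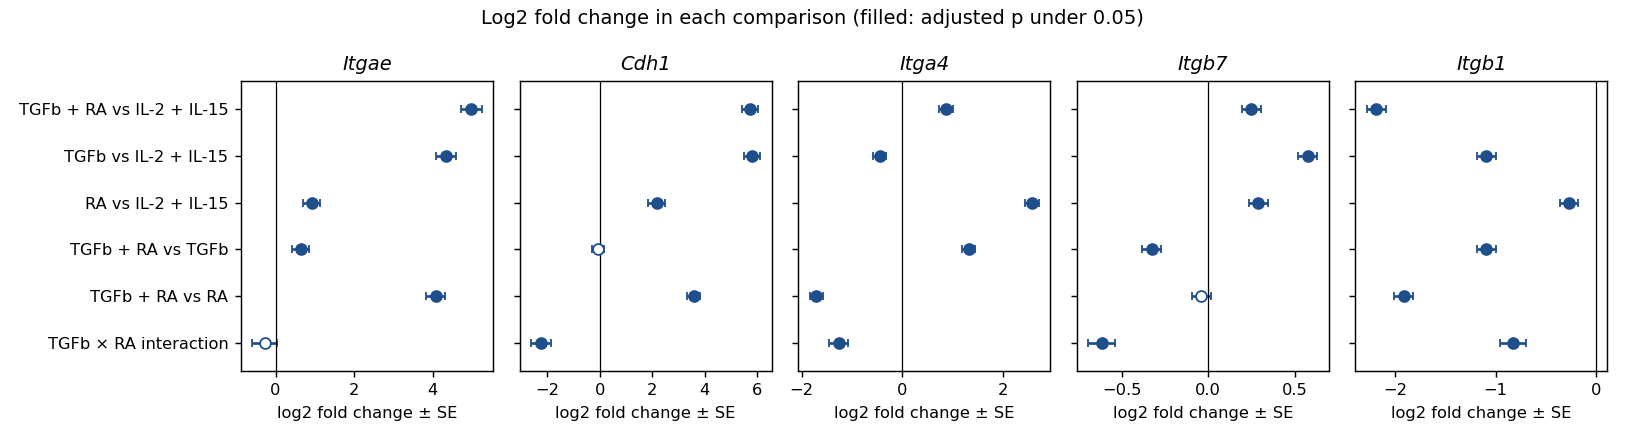
Log2 fold change of each gene (x axis, a scale of its own per gene) in 5 comparisons of groups and in the TGFb by RA interaction, with bars of 1 SE and filled points where the adjusted p was under 0.05. Open points are Cdh1 in TGFb + RA against TGFb, Itgb7 in TGFb + RA against RA, and Itgae in the interaction; the interactions of the 4 other genes lie below 0.

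Itgb7, the β chain shared by αE and α4, lies on chromosome 15 (102215995 to 102231944, minus strand; ENSMUSG00000001281), with 16 merged exons of 2770 bases. It was at 1130, 1186 and 1157 CPM in TGFb + RA, 1530, 1390 and 1437 in TGFb, 1212, 1141 and 1219 in RA, and 924, 984 and 1018 in IL-2 + IL-15. All treated libraries lay above all IL-2 + IL-15 libraries, TGFb was highest, and TGFb + RA overlapped RA. The changes were small beside those of Itgae and Itga4. The log2 fold change was 0.25 ± 0.06 for TGFb + RA (adjusted p = 0.00154), 0.57 ± 0.06 for TGFb (2.44e-06) and 0.29 ± 0.06 for RA (0.00161), each against IL-2 + IL-15. TGFb + RA lay below TGFb by -0.33 ± 0.06 (adjusted p = 3.07e-04), and its difference from RA was -0.04 ± 0.06 (95% interval -0.16 to 0.08, adjusted p = 0.541). The interaction was -0.61 ± 0.08 (adjusted p = 1.20e-04), with RA going with a higher level without TGFb and with a lower one in its presence. None of these differences passed a test against a minimum change of 1.5-fold.

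Itgb1, the β1 chain, pairs with α4 and with many other α chains that bind collagen, laminin and fibronectin. It lies on chromosome 8 (128685654 to 128733200, plus strand; ENSMUSG00000025809), with 17 merged exons of 4081 bases. It had 61.7, 66.2 and 65.1 CPM in TGFb + RA, 145, 132 and 136 in TGFb, 255, 256 and 217 in RA, and 342, 257 and 282 in IL-2 + IL-15. The groups were ordered TGFb + RA, TGFb, RA and IL-2 + IL-15 from low to high without overlap, but RA replicates 1 and 2 lay only just below IL-2 + IL-15 replicate 2. The log2 fold change was -2.19 ± 0.10 for TGFb + RA (adjusted p = 4.44e-10), -1.09 ± 0.09 for TGFb (7.44e-07) and -0.27 ± 0.09 for RA (0.0398), each against IL-2 + IL-15. The call with RA was lost in 10 of the 12 fits that leave out 1 library, with -0.35 to -0.14 over the 12, where -0.14 is the value without IL-2 + IL-15 replicate 1, and with -0.26 (adjusted p = 0.144) in a fit of those 2 groups only.

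With TGFb present RA went with a far lower Itgb1. TGFb + RA lay below TGFb by -1.10 ± 0.09 (adjusted p = 6.08e-07) and below RA by -1.92 ± 0.10 (3.60e-09). The interaction was -0.82 ± 0.13 (adjusted p = 6.54e-04). In all, 4 of the 5 genes had a negative interaction that was called and 0 a positive one. Of all genes tested, 12.3% were called with a negative and 6.95% with a positive interaction. Without RA replicate 3, the number of genes called for the interaction was 4158, against 2702 with it, and the same 4 genes were called with a negative sign.

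Levels of different genes were compared as RPKM, which is CPM per kilobase of merged exons. In TGFb + RA Itgae was highest, at a mean of 689 RPKM, followed by Itgb7 (418), Cdh1 (62.8), Itga4 (20.5) and Itgb1 (15.8). With TGFb alone Itgb7 (524) came before Itgae (443), then Cdh1 (66.2), Itgb1 (33.7) and Itga4 (8.22). The RA order was Itgb7 (430), Itga4 (67.2), Itgb1 (59.5), Itgae (41.0) and Cdh1 (5.26). In IL-2 + IL-15 it was Itgb7 (352), Itgb1 (71.9), Itgae (21.7), Itga4 (11.2) and Cdh1 (1.19). Thus Itgb7 was the first of the 5 in every culture but TGFb + RA, where Itgae passed it. Among the 13942 genes ranked by RPKM, Itgae was number 41 in TGFb + RA, 68 in TGFb, 1213 in RA and 2470 in IL-2 + IL-15. Cdh1 was number 693 in TGFb + RA, 655 in TGFb, 7182 in RA and 10670 in IL-2 + IL-15. The order of the 5 genes by group mean was the same in each group when lengths of the longest transcript were used. Itgb7 and Itgae were then close in TGFb, at means of 541 and 527 RPKM, and Itgae was the higher in TGFb replicate 2 (536 against 518). Leaving out TMM, which scales all genes of a library alike, could hardly change the order and did not.

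The partner chains were compared within each library, as a ratio per exon length that does not depend on library scaling. Itgae transcripts stood to Itgb7 transcripts at 1.65 to 1 in TGFb + RA, 0.845 in TGFb, 0.0904 in RA and 0.0604 in IL-2 + IL-15 (geometric means, n = 3). Every TGFb + RA library was above 1, with 1.61 to 1.68, and every TGFb library below 1, with 0.799 to 0.897. With the longest transcript as length these means were 1.90 in TGFb + RA, 0.975 in TGFb, 0.104 in RA and 0.0697 in IL-2 + IL-15, so the TGFb ratio cannot be set apart from 1 across choices of length. The log2 ratio was 4.77 ± 0.18 higher in TGFb + RA and 3.81 ± 0.18 higher in TGFb than in IL-2 + IL-15, and 0.96 ± 0.05 higher in TGFb + RA than in TGFb (difference ± SE). RA exceeded IL-2 + IL-15 by 0.58 ± 0.37, with overlapping libraries (exact two-sided permutation test, p = 0.3, 0.316 after Benjamini-Hochberg adjustment).

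The α4 chain stayed well below β7 everywhere. The ratio of Itga4 to Itgb7 was 0.0486 in TGFb + RA, 0.0157 in TGFb, 0.155 in RA and 0.0317 in IL-2 + IL-15, with no overlap between groups in the 5 comparisons made. Its log2 difference from IL-2 + IL-15 was 0.62 ± 0.18 for TGFb + RA, -1.02 ± 0.10 for TGFb and 2.29 ± 0.12 for RA. The sum of both α chains over β7 was 1.70 ± 0.04 in TGFb + RA, 0.862 ± 0.051 in TGFb, 0.251 ± 0.051 in RA and 0.0931 ± 0.0139 in IL-2 + IL-15 (RPKM, mean ± SD, n = 3). In each group the libraries lay closer to each other than to those of the next group.

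For α4 and β1 the cultures with RA stood apart from those without it. The ratio of Itga4 to Itgb1 was 1.29 in TGFb + RA, 0.244 in TGFb, 1.12 in RA and 0.156 in IL-2 + IL-15. TGFb + RA and RA overlapped, with a log2 difference of 0.20 ± 0.27 (exact two-sided permutation test, p = 0.5), while TGFb + RA exceeded TGFb by 2.40 ± 0.20. The levels behind the like ratios differed, since Itga4 and Itgb1 were both lower in TGFb + RA than in RA. The ratio of Itgb7 to Itgb1, the partners that α4 can choose between, was 26.5 in TGFb + RA, 15.5 in TGFb, 7.24 in RA and 4.93 in IL-2 + IL-15. It was 2.43 ± 0.16 higher in TGFb + RA, 1.66 ± 0.16 in TGFb and 0.55 ± 0.18 in RA than in IL-2 + IL-15 on the log2 scale. Of the 20 comparisons of the 4 ratios, 18 had groups that did not overlap and p = 0.1 by the exact two-sided permutation test, the smallest that 3 against 3 libraries allow (0.111 adjusted over the 20), so none could pass 0.05. A ratio of transcripts is not a ratio of proteins or of pairs at the surface.

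**Figure D3:**
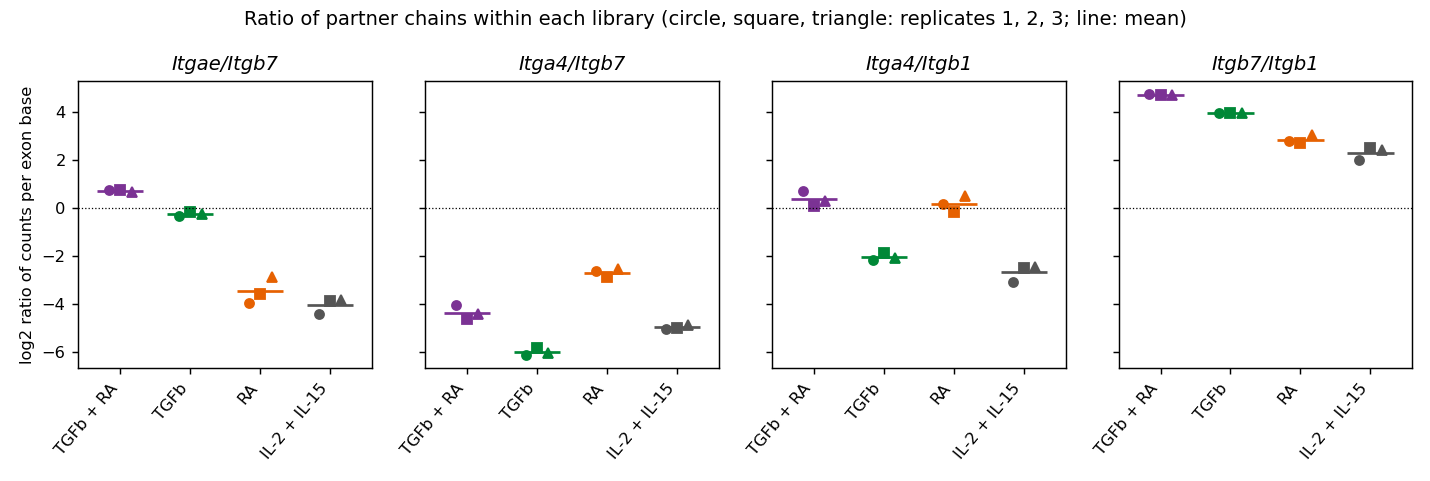
Ratio of partner chains within each library, as log2 of counts per exon base (dotted line: equal levels), with 1 point per library and a line at the group mean of 3. Itgae exceeds Itgb7 in all 3 TGFb + RA libraries, Itga4 is above or near Itgb1 in both cultures with RA, and Itgb7 exceeds Itgb1 in all 12 libraries.

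The β1 chain is also used by other α chains. Of these, 8 passed the filter, and their RPKM summed to 28.1 in TGFb + RA, 23.8 in TGFb, 28.3 in RA and 22.7 in IL-2 + IL-15. Itga4 made up 42.2% of the summed RPKM of the α chains that can pair with β1 in TGFb + RA, 25.7% in TGFb, 70.4% in RA and 33.0% in IL-2 + IL-15. Each chain was counted in full, also where it has other partners, as Itga4 has in Itgb7. The values are thus shares of transcripts and not of pairs with β1. The sum of the 8 chains with Itga4 stood to Itgb1 at 3.09 in TGFb + RA, 0.95 in TGFb, 1.61 in RA and 0.472 in IL-2 + IL-15. These sums used the length of merged exons only, so on which side of 1 the TGFb ratio lies was not settled.

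The other integrin chains were counted for comparison. The counts of this list and of those that follow are read against the shares of all genes tested, which were 30.8% higher and 32.4% lower with TGFb + RA, 20.7% and 22.4% with TGFb, and 12.4% and 14.3% with RA. Of 23 such genes 17 passed the filter. With TGFb + RA 5 rose and 10 fell (median log2 fold change -0.78), with TGFb 4 rose and 9 fell (-0.39), and with RA 7 rose and 3 fell (-0.02), each against IL-2 + IL-15. Itgal, the α chain of LFA-1 that binds ICAM-1 on other cells, averaged 384 ± 33.1 CPM in TGFb + RA, 946 ± 18.7 in TGFb, 1453 ± 118 in RA and 1650 ± 40.2 in IL-2 + IL-15. Its log2 fold change was -2.10 ± 0.07 with TGFb + RA and -0.80 ± 0.07 with TGFb. Itga1, the collagen-binding α1 chain that pairs with β1, rose by 2.36 with RA. It averaged 66.3 ± 7.42 CPM in TGFb + RA, 12.1 ± 2.14 in TGFb, 73.4 ± 27.7 in RA and 14.3 ± 3.88 in IL-2 + IL-15. Itgax, the αX chain, rose by 1.46 with RA and had a log2 fold change of -2.64 with TGFb. Itgax is also 1 of 8 dendritic cell markers. Of the other 7, Cd207, Cd209a and Siglech had 0 counts in every library, and Xcr1, Flt3 and Clec9a had at most 5, 6 and 1. Ccr6 had 3 to 4 counts in TGFb + RA, 7 to 9 in TGFb, 0 in RA and 1 to 3 in IL-2 + IL-15. The part of such cells in the Itgax values was not tested. Itgad, the αD chain, rose by 0.65 with TGFb + RA and by 2.22 with RA and had -0.66 with TGFb, and Itga2, the collagen-binding α2 chain, had a log2 fold change of -1.49 with TGFb + RA.

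**Figure D4:**
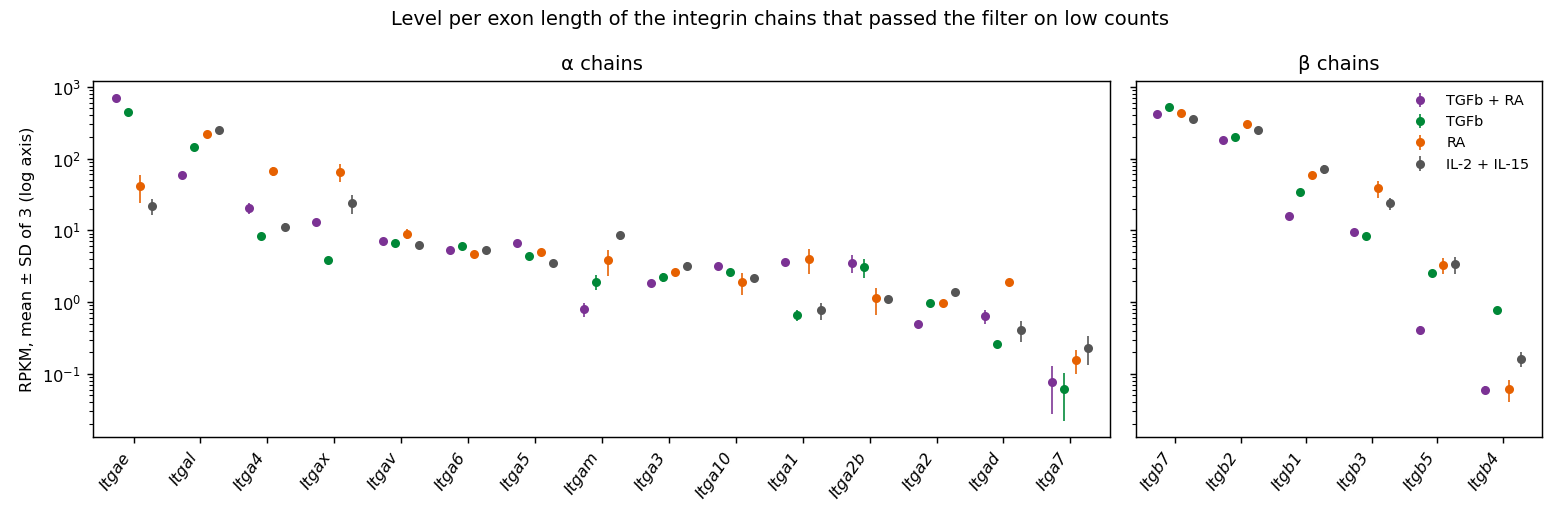
Level per exon length (RPKM, log axis) of the 15 α and 6 β chains that passed the filter, as mean ± SD of 3 libraries in each group. In TGFb + RA Itgae is the highest α chain and Itgb7 the highest β chain, and Itgb7 is the highest β chain in all 4 groups.

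Genes that switch integrins on, or tie them to the cytoskeleton, went both ways. Of 28 that passed the filter (32 listed), 10 rose and 9 fell with TGFb + RA, 10 rose and 7 fell with TGFb, and 6 rose and 5 fell with RA, with medians of 0.02, 0.00 and 0.03. Zyx, which encodes the focal adhesion protein zyxin, had a log2 fold change of -1.52 with TGFb + RA and -0.66 with RA. Dok1, an adaptor that competes with talin for β tails, rose by 1.45 with TGFb + RA and by 0.64 with TGFb. Rap1b, a small GTPase that activates integrins, had -0.76 with TGFb + RA, and its relative Rap1a had -0.33 with RA. Vcl, which encodes vinculin, had -2.32 with TGFb + RA and -1.01 with TGFb. Values of the core activators in TGFb + RA were 0.00 for Fermt3 (kindlin-3, adjusted p = 0.952) and 0.18 for Tln1 (talin-1, 0.00744).

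Of the partners of E-cadherin inside the cell, β-catenin and α-catenin were detected in every group, and p120-catenin did not pass the filter. Of 22 cadherin and catenin genes 13 passed the filter, and 3 rose and 2 fell with TGFb + RA, 3 rose and 2 fell with TGFb, and 4 rose and 2 fell with RA, with median log2 fold changes of 0.02, 0.06 and 0.06. Ctnnb1 (β-catenin) averaged 393 ± 16.6 CPM in TGFb + RA, 465 ± 36.5 in TGFb, 347 ± 5.26 in RA and 346 ± 13.8 in IL-2 + IL-15, and rose by 0.43 ± 0.06 with TGFb (adjusted p = 5.30e-05). Ctnna1 (α-catenin) averaged 72.9 ± 1.77 CPM in TGFb + RA and 64.2 ± 1.67 in IL-2 + IL-15, with a log2 fold change of 0.18 (adjusted p = 0.0881). Mllt4, which encodes afadin of cell junctions, rose by 0.59 with TGFb + RA, 0.85 with TGFb and 0.61 with RA. Ctnnd1 (p120-catenin), which keeps E-cadherin at the surface, did not pass the filter, with means of 0.312 CPM in TGFb + RA and 0.0470 in IL-2 + IL-15. Klrg1, whose product binds E-cadherin, was low in all groups, at 0.226 ± 0.051 CPM in TGFb + RA, 0.119 ± 0.106 in TGFb, 3.86 ± 1.80 in RA and 0.492 ± 0.428 in IL-2 + IL-15, and rose by 2.97 ± 0.49 with RA (adjusted p = 5.08e-04).

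Of 7 repressors of E-cadherin transcription 5 passed the filter. With TGFb + RA 2 of these rose and 3 fell, with TGFb 1 rose and 2 fell, and with RA 1 rose and 2 fell, with medians of -0.35, 0.12 and -0.19. Zeb2 averaged 2.91 ± 1.08 CPM in TGFb + RA, 4.83 ± 0.99 in TGFb, 9.18 ± 1.10 in RA and 11.7 ± 1.88 in IL-2 + IL-15, with a log2 fold change of -2.05 ± 0.24 with TGFb + RA and -1.28 ± 0.22 with TGFb. Tcf3 (E2A) had -0.55 with TGFb + RA and -0.42 with TGFb. Zeb1, a close relative of Zeb2, rose by 0.22 with TGFb + RA and by 0.19 with TGFb. Of the 6 ligands of α4 integrins 3 passed the filter, of which 2 rose and 1 fell with TGFb + RA, 1 rose and 1 fell with TGFb, and 1 rose and 0 fell with RA, with medians of 1.61, 1.56 and 1.12 over these 3 genes. Spp1, which encodes osteopontin, had a log2 fold change of -2.02 with TGFb + RA and -2.73 with TGFb, and rose by 1.12 with RA. Thbs1 and Jam2, also among these 3, were near the floor, so the medians rest partly on low levels. Thbs1 averaged 1.83 CPM in TGFb + RA, 1.73 in TGFb, 0.323 in RA and 0.577 in IL-2 + IL-15. Jam2 averaged 0.200 CPM in TGFb + RA, 0.561 in TGFb, 0.0898 in RA and 0.0363 in IL-2 + IL-15. The vessel ligands Madcam1 and Vcam1 did not pass the filter, with means of at most 0.0398 and 0.0531 CPM.

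Receptors, transducers and transcription factors of both signals also differed. Of 18 that passed the filter (20 listed), 5 rose and 10 fell with TGFb + RA, 7 rose and 7 fell with TGFb, and 3 rose and 5 fell with RA, with medians of -0.21, 0.03 and -0.06. Tgfbr2, a receptor chain for TGFb, averaged 352 ± 9.03 CPM in TGFb + RA, 356 ± 10.01 in TGFb, 193 ± 12.8 in RA and 185 ± 2.07 in IL-2 + IL-15. Smad3, a transducer of TGFb signals, had a log2 fold change of -1.27 with TGFb + RA and -1.76 with TGFb. Smad7, an inhibitor of the pathway, rose by 0.93 with TGFb. Among retinoid receptors Rarg had -1.48 with TGFb + RA and -1.66 with RA, and Rara -1.05 and Rxra -3.10 with RA. Tbx21 (T-bet) and Runx3, a pair of factors known to act on Itgae in mouse T cells, had -1.01 ± 0.12 and 0.43 ± 0.07 with TGFb + RA and -1.5 ± 0.12 and 0.63 ± 0.07 with TGFb; both were named for this known role. With RA, Tbx21 rose by 0.58 ± 0.12 (adjusted p = 0.00238) and Runx3 had -0.01 ± 0.07 (0.959).

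The genes with the most similar course over the 12 libraries were found by Pearson's r of log2 CPM among 9535 genes. The libraries of a group share a treatment, so r mostly reflects 4 group means and is a description only. For Itgae these genes were Mbtps1 (r = 0.997), Abca1 (0.996) and Arih2 (0.993). For Cdh1 they were Cotl1 (0.988), Rnf19b (0.986) and Plekhm3 (0.986). For Itga4 they were Cul4a (0.979), Dnmt3a (0.976) and Espn (0.971), for Itgb7 Slc30a4 (0.95), Gpr55 (0.944) and Lrrc8c (0.942), and for Itgb1 Rpl31 (0.996) and Pgk1 (0.996). The like genes of Itgae moved far less than Itgae itself, with Abca1 at 53.5 ± 0.42 CPM in TGFb + RA and 13.8 ± 1.67 in IL-2 + IL-15. Between the 5 genes r was highest for Itgae with Cdh1 (0.944) and lowest for Itgae with Itgb1 (-0.930), and it was -0.125 for Itga4 with Itgb7.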

How the data were processed

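RNA of CD8 T cells was sequenced in 12 libraries made with a stranded TruSeq mRNA kit, per the labels. Reads were aligned with STAR and assigned with featureCounts on GRCm38, per the submitters' processing notes; versions, annotation and strand setting were not stated there. The authors deposited whole-number counts for each gene and library, without normalization. Exons and coordinates came from GENCODE for GRCm38, which held 98.2% of the 46078 identifiers. The edgeR 4.0.16 function filterByExpr (R 4.3.3, minimum count 10, by group) removed low genes, and libraries were scaled by TMM and tested with glmQLFTest in 1 model of all 12 libraries (8 residual degrees of freedom). Log2 fold changes used a prior count of 0.125, and each SE is their size divided by the root of F. Chain ratios were compared by exact two-sided permutation tests. The test was tried on simulated data. Alternatives were DESeq2 1.42.0 and its size factors, no filter, the replicate number as a block, only the groups compared, glmTreat against 1.5-fold and leaving out each library. The genes and lists were chosen with earlier results of these data known. Genes named from the lists were drawn from up to 3 called genes per list and comparison with the smallest adjusted p and at least 1 CPM, not all of which are printed, with others named for a known role with their values, and the 3 genes most like each of the 5 by r, with predicted gene models left out and a mean of at least 5 CPM.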

Additional observations from a re-analysis of the deposited data

Results flagged for a closer look

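For several genes the effect of RA differed between cultures with and without TGFb, by the interaction term in edgeR (quasi-likelihood, Benjamini-Hochberg adjusted). Values are the log2 RA effect with TGFb minus that without it. Among the 5 genes these were -1.26 for Itga4, -0.61 for Itgb7, -0.82 for Itgb1 and -2.23 for Cdh1. Of the 17 other integrin chains tested, 0 were called with a positive and 5 with a negative interaction, among them Itgal (-1.12), Itgb5 (-2.61) and Itgb4 (-2.33). Itgb4 averaged 0.419 ± 0.055 CPM in TGFb + RA, 5.48 ± 0.39 in TGFb, 0.433 ± 0.147 in RA and 1.15 ± 0.28 in IL-2 + IL-15. Of 28 activation and adaptor genes, 2 were called positive and 6 negative, among them Rap1b (-0.53), Zyx (-0.66) and Dok1 (0.47). Of 13 cadherin and catenin genes, 2 were called positive and 3 negative, among them Mllt4 (-0.87), Jup (-1.79) and Pkp3 (0.38). Of 18 regulators, 0 were called positive and 2 negative, Rarg (-0.45) and Cbfb (-0.22). Of all genes tested 6.95% were called with a positive and 12.3% with a negative interaction. Their causes were not tested.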

How the results depend on the processing

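Over 535 recomputed values of the 5 genes, 504 kept their direction and side of the threshold, 30 lost a call and 1 changed sign. All 140 recomputed differences of chain ratios stayed within 1 pooled SD of the main value. That outcome was fixed in advance and is no check. Exon length cancels in a difference between groups, and leaving out 1 of 3 libraries cannot move a mean that far. With 3 libraries or fewer a group no ratio could pass the threshold. Against 1.5-fold (glmTreat), 637 genes were called for RA, 1225 for TGFb and 2903 for TGFb + RA, each against IL-2 + IL-15, with 1546 for TGFb + RA against TGFb, 2503 against RA and 586 for the interaction, where a larger minimum change leaves fewer. It lost the calls of Itgae (0.92), Itgb7 (0.29) and Itgb1 (-0.27) with RA, Itga4 (-0.45) and Itgb7 (0.57) with TGFb, Itgb7 (0.25) with TGFb + RA, Itgae (0.64) and Itgb7 (-0.33) in TGFb + RA against TGFb, and Itgb7 (-0.61) and Itgb1 (-0.82) in the interaction. DESeq2 lost Itgae in TGFb + RA against TGFb (0.64). A fit of only the groups compared lost Itgae (0.93) and Itgb1 (-0.26) with RA. Leaving out 1 library gave -0.35 to -0.14 for Itgb1 with RA (10 of 12 lost), -0.52 to -0.36 for Itga4 with TGFb (1 lost), 0.61 to 0.66 for Itgae in TGFb + RA against TGFb (6 lost), 0.54 to 1.14 for Itgae with RA (0 lost) and -0.51 to 0.10 for the interaction of Itgae, which turned to 0.10 without RA replicate 3. The number of genes called for the interaction then ran from 2040 to 4158, with 4158 without RA replicate 3. Of 1284 counts of list genes called in 1 direction, 134 moved by over 1.5 times. Without TGFb + RA replicate 3, Plscr4 took the place of Plekhm3 among the genes most like Cdh1. The causes of the other losses were not tested.

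The replicate numbers were not taken as a pairing. Same-numbered libraries of different groups had correlated deviations of -0.00391 to 0.341 (median 0.104, 10 of 18 pairs over 0.1). Differently numbered ones had -0.301 to 0.163 (median -0.0549, 1 of 36 pairs over 0.1). Of 12 libraries, 6 correlated best with their own number in every other group. Same-numbered libraries were thus more alike than others, and the main fit did not use this. With the replicate block 4021 genes were called for RA (3740 without), 6381 for TGFb (6034), 9059 for TGFb + RA (8854) and 3072 for the interaction (2702). Of the 5 genes, 0 changed their call under the block.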
